A study of Mus musculus with 26 samples.

Results

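The circadian clock genes Per1, Per2, Per3, Clock, Arntl, Cry1, Cry2, Nr1d1, Nr1d2 and Dbp were followed in RNA immunopurified with tagged ribosomes. The tag was aimed at Drd2-expressing striatal neurons (Drd2 encodes the D2 dopamine receptor), and markers of other cells are given below. These clock genes were chosen by name, as 10 of the 31972 genes that the deposited count tables have in common. Earlier results of these data were known when the 10 were chosen. The shares of all genes given beside them below are therefore description, not a test of the list. All mice were adult Drd2-TRAP mice of line CP101, on a background given as FVB/N-Swiss Webster crossed to C57BL/6 for at least 9 generations. In these mice a transgene under Drd2 control makes the ribosomal protein Rpl10a fused to EGFP, and antibodies to EGFP immunopurify ribosomes and their RNA from homogenised dorsal striatum (translating ribosome affinity purification, TRAP). Mice had self-administered saline or cocaine intravenously with long access, and the titles split cocaine mice into an escalating and a nonescalating group. Without withdrawal there were 3 immunopurified libraries after saline, 4 after non-escalating cocaine and 2 after escalating cocaine. After withdrawal there were 5 libraries from saline and 9 from non-escalating cocaine mice; how long it lasted was not found in the labels. Unpurified input RNA gave 3 more libraries, 1 from the saline condition, 1 from the non-escalating condition and 1 from saline mice in withdrawal. Every group shares the transgene, so no library shows D2 neurons without tagged ribosomes. The labels do not say that each library is a separate animal, so each p-value reflects only how much these libraries scatter, which may be technical. The labels give no hour of collection, and differences of hour between libraries were not tested.

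The mammalian clock is a loop of transcription and translation. CLOCK and ARNTL (also called BMAL1) bind E-box DNA as a pair and switch on the Per and Cry genes, whose proteins return to the nucleus and repress that pair, while the nuclear receptors NR1D1 and NR1D2 (REV-ERB alpha and beta) are switched on by the same pair and repress Arntl. DBP is an output factor that binds D-box DNA, and Per1 and Per2 also respond quickly to cAMP and calcium signals through CREB, in neurons of the striatum as elsewhere.

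RefSeq promoter windows (GRCm38.p6, the 250 bases before and 50 after a gene's start) were at hand for 9 of the 10 genes, with 13 windows in all, and Per2 had no window in the table used. They were searched on both strands for the E-box CACGTG, the D-boxes TTACGTAA and TTATGTAA, the cAMP response element TGACGTCA and its shorter core TGACG (which is part of it), and the ROR element cores TAGGTCA and TGGGTCA that REV-ERB proteins bind. Of 32851 windows of this length, 7.15% held CACGTG, 0.119% TTACGTAA, 0.938% TTATGTAA, 1.79% TGACGTCA, 20.8% TGACG, 2.61% TAGGTCA and 3.98% TGGGTCA. Windows of 5 of the 9 genes held a motif. How many of all genes hold any of these motifs was not computed, so this count shows nothing particular to clock genes. The stretches below are shown because they hold the letters that the clock's own factors and CREB read in genes whose levels are described next, with each motif in capitals and the gene's strand read 5′ to 3′. Both Per1 starts with a window lie inside the gene as GENCODE annotates it, from 69095217, and the bases before that position were not searched. The upstream stretch of the first Per1 start in the windows is chr11:69098699-69098947 (+ strand), with TGACG at -246 and CACGTG at -166 from the start.
Per1 first start: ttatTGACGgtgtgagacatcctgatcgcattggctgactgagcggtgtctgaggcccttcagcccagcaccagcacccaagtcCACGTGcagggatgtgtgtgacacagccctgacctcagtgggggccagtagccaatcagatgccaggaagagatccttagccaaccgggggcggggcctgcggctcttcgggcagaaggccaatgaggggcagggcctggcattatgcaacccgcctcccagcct
The second Per1 start has a TGACG at -132, within chr11:69100007-69100036.
Per1 second start: tgagctcagcggcTGACGtcggtttccctg
The upstream stretch of Cry1, chr10:85185065-85185304 (- strand), has CACGTG at -60. A TGACG at -8 lies in what GENCODE counts as the first exon and is not shown.
Cry1: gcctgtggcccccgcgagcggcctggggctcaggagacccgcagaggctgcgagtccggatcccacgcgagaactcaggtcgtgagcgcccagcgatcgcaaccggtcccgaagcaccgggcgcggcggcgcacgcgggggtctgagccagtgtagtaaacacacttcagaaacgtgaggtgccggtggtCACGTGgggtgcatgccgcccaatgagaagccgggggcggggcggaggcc
The upstream stretch of Per3, chr4:151044666-151044915 (- strand), has TTATGTAA at -205 and again at -158.
Per3: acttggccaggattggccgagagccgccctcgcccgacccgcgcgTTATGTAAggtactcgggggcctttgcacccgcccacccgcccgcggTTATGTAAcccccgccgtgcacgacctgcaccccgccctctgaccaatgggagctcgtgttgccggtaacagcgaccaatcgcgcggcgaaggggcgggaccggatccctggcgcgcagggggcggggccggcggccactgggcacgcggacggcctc
Beyond the second Arntl start a TAGGTCA begins at 31, within chr7:113207529-113207558 (+ strand).
Arntl second start: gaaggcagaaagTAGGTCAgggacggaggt
Cry2 has a TGACG on the other strand at -209, and no motif of the list was found in the windows of Clock, Nr1d1, Nr1d2 and Dbp. A match describes letters only and shows no binding.

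Depth, library set and purity vary between libraries and bear on what follows. Immunopurified libraries held 3279457 to 19122303 gene counts (median 8666909) and inputs 5016587 to 11549493. Library numbers in the titles fall into 2 sets. Set A has every immunopurified library taken without withdrawal plus 6 taken after it, and set B the other 8, all taken after it. Of the uniquely aligned reads, 21.2% to 70.7% were assigned to no gene in immunopurified libraries (called the share outside genes), and 5 libraries, all after withdrawal, were above 50%: both saline withdrawal libraries of set A, and replicate 1 of set A and replicates 3 and 4 of set B of non-escalating withdrawal. The tissue label was checked with markers. The 8 D2 neuron markers summed to 2344 to 19460 CPM (counts scaled to library size) in immunopurified libraries against 2233 to 2401 in inputs, and the 5 D1 neuron markers to 37.2 to 94.9 against 452 to 548. The 8 endothelial markers summed to 54.5 to 7606 in immunopurified libraries and 111 to 345 in inputs. Their medians were 1066 and 130, and those of the D2 markers 9642 and 2318, so by median both were higher after immunopurification. The lowest D2 sum, in a saline withdrawal library, lies inside the range of the inputs.

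All 10 genes were measured above the low-count filter, and their levels were compared after division by exon length. Per kilobase of exon, over the 23 immunopurified libraries, Cry2 was at 30.6 ± 9.94 CPM per kb (SD, n = 23) and Per1 at 29.9 ± 14.3. Nr1d1 (17.5 ± 5.91), Nr1d2 (14.7 ± 3.69), Per2 (14.2 ± 7.39) and Clock (11.4 ± 2.23) followed, on the same scale. Per3 (9.48 ± 4.50), Cry1 (7.29 ± 3.48), Dbp (4.08 ± 1.61) and Arntl (3.46 ± 1.40) were lowest. No neighbours in this order differed by more than the larger of their SDs. Cry2 exceeded Per1 in 14 of 23 libraries, and Per1 exceeded Nr1d1 in 21. With all groups pooled, Clock had the smallest spread over libraries, with a coefficient of variation of 19.6%, and Per2 the largest, with 52.2%. On log2 CPM the SD was again smallest for Clock (0.267), but Cry1 (0.731) and Arntl (0.718) were above Per2 (0.712). The plot of levels by group shows every library.

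**Figure D1:**
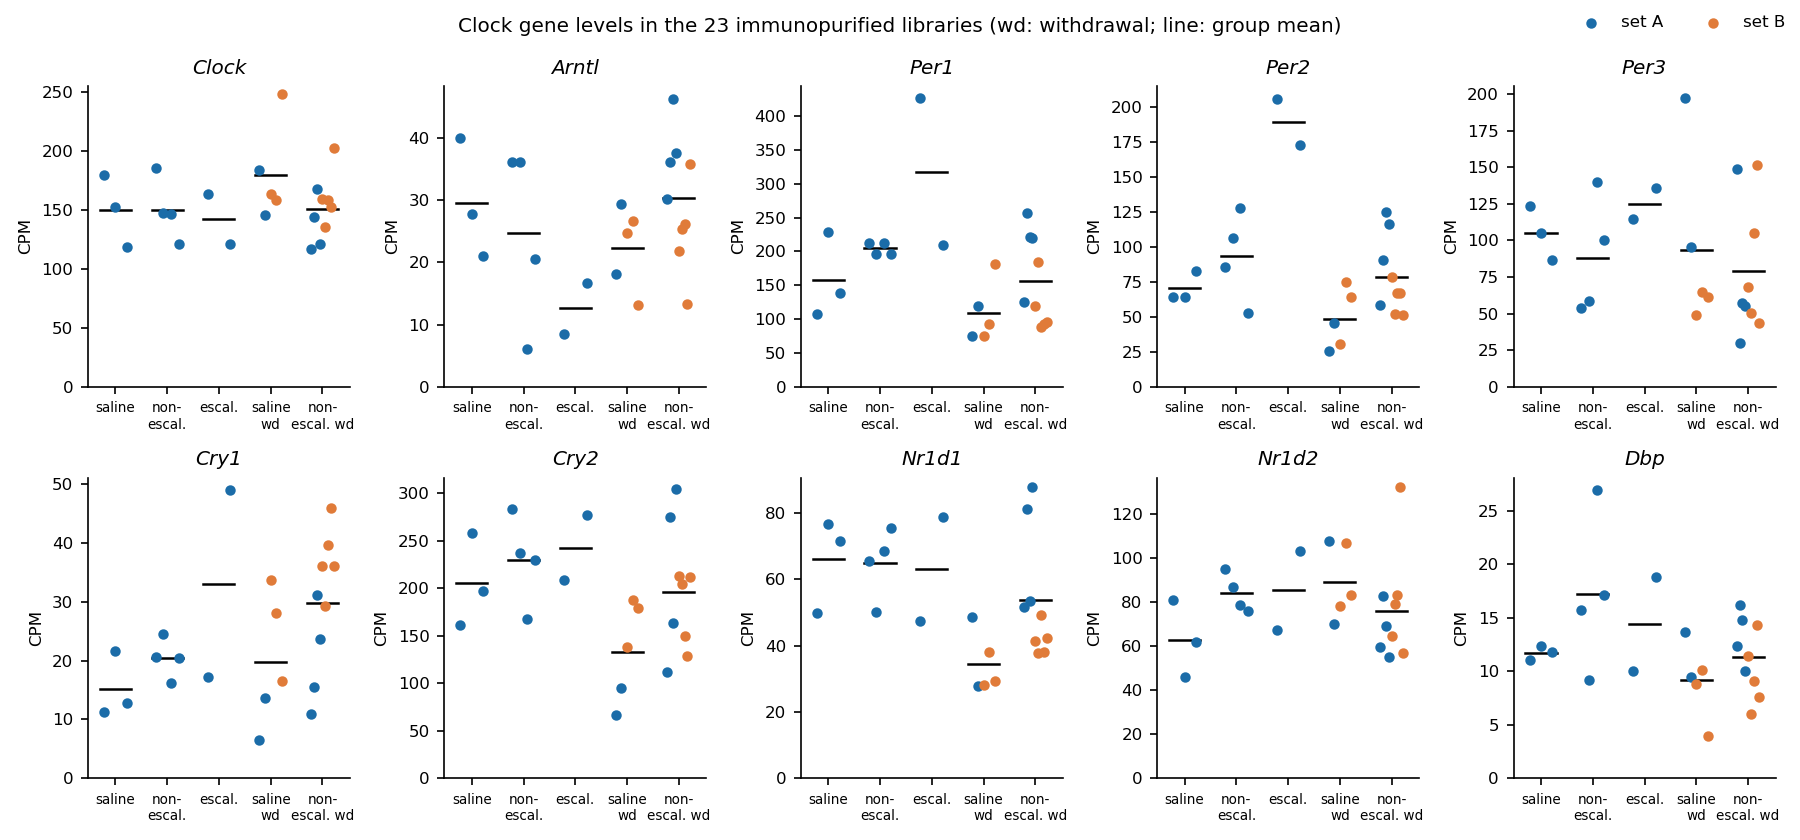
Levels of the 10 clock genes (CPM, linear axis from 0) in each of the 23 immunopurified libraries, by group; points are libraries, coloured by library set, and the line is the group mean. Per2 is higher in both escalating libraries (206 and 173 CPM) than in the other 21, and Cry1 is high in 1 escalating library only (49.0 against 17.2 CPM).

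Clock (chromosome 5, 76209868 to 76304792, - strand of GRCm38) encodes the positive factor with histone acetyltransferase activity. Its CPM was 179, 152 and 118 in saline libraries, 185, 148, 146 and 121 in non-escalating and 164 and 121 in escalating libraries. After withdrawal it was 184, 145, 163, 158 and 248 with saline, and 117 to 202 (median 152) with non-escalating cocaine. The 5 groups overlapped throughout. Arntl (chromosome 7, 113207465 to 113314126, + strand), the partner of Clock, was at 40.0, 27.8 and 21.1 CPM in saline libraries, 36.2, 36.2, 6.12 and 20.5 in non-escalating and 8.53 and 16.8 in escalating libraries. In the withdrawal groups it was at 18.1, 29.4, 24.7, 26.6 and 13.2 CPM with saline and 13.2 to 46.4 (median 30.3) with non-escalating cocaine. Both escalating libraries were below all 3 saline libraries, but the lowest value of all was non-escalating replicate 3, with 44 counts.

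Among the Per genes, which encode the repressors' scaffold, Per2 (chromosome 1, 91415982 to 91459324, - strand) differed most between libraries. It was at 64.1, 64.3 and 82.9 CPM in saline libraries, 85.8, 106, 128 and 52.9 in non-escalating libraries, and 206 and 173 in escalating libraries. The withdrawal libraries were at 25.8, 45.3, 30.4, 74.7 and 64.4 CPM with saline and 51.3 to 125 (median 67.0) with non-escalating cocaine. Both escalating libraries were above every other library, and the 2 lowest values were both in saline withdrawal. Per1 (chromosome 11, 69095217 to 69109960, + strand), the most abundant Per gene per length, was at 108, 228 and 138 CPM in saline libraries, at 213, 197, 212 and 196.5 in non-escalating libraries, and at 427 and 209 in escalating libraries. Withdrawal libraries held it at 75.5, 120, 74.4, 92.6 and 181 CPM with saline and 88.5 to 257 (median 125) with non-escalating cocaine. The non-escalating libraries were close together (SD 9.18 CPM) inside the range of the saline libraries, and 1 escalating library stood far above. Per3 (chromosome 4, 151003652 to 151044665, - strand), a Per gene that the clock can run without, was at 123, 105 and 86.6 CPM with saline, 53.8, 58.8, 140 and 100.4 with non-escalating cocaine, and 114 and 136 with escalating cocaine. With withdrawal it was at 197, 95.6, 48.8, 64.5 and 61.3 CPM with saline and 30.1 to 152 (median 57.0) with non-escalating cocaine. All its groups overlapped.

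Of the Cry genes, whose products are the main repressors of the CLOCK and ARNTL pair, Cry1 (chromosome 10, 85131700 to 85185064, - strand) was at 11.2, 21.7 and 12.8 CPM in saline libraries, 20.6, 24.4, 16.3 and 20.5 in non-escalating and 17.2 and 49.0 in escalating libraries. Its levels after withdrawal were 6.48 and 13.7 CPM in set A and 33.7, 28.0 and 16.5 in set B with saline, and at 10.9 to 45.9 (median 31.1) with non-escalating cocaine. All its groups overlapped. Cry2 (chromosome 2, 92403646 to 92434043, - strand) was at 161, 258 and 197 CPM with saline, 283, 237, 168 and 230 with non-escalating cocaine, and 208 and 276 with escalating cocaine. After withdrawal it was at 66.7, 95.1, 138, 187 and 179 CPM with saline and 111 to 304 (median 204) with non-escalating cocaine. The 2 lowest values were the saline withdrawal libraries of set A, the pair with over 50% of reads outside genes. Exons of Cry2 overlap those of D930015M05Rik on the opposite strand by 295 bases, and the labels do not state whether the counting used strand, so reads there cannot be told apart.

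The REV-ERB genes differed from each other. Nr1d1 (chromosome 11, 98767932 to 98775333, - strand) was at 49.9, 76.8 and 71.6 CPM with saline, 65.4, 50.3, 68.6 and 75.3 with non-escalating cocaine, and 47.4 and 78.9 with escalating cocaine. In the withdrawal groups it was at 48.7, 27.9, 28.2, 37.9 and 29.4 CPM with saline and 37.9 to 87.7 (median 49.3) with non-escalating cocaine. All 5 saline withdrawal libraries were below all 3 saline libraries, the closest pair being 48.7 and 49.9 CPM. Nr1d2 (chromosome 14, 18204054 to 18239127, - strand) was at 80.9, 46.0 and 61.8 CPM with saline, 94.97, 87.0, 78.9 and 75.9 with non-escalating cocaine, and 67.2 and 103 with escalating cocaine. The withdrawal libraries were at 108, 70.0, 78.0, 107 and 83.2 CPM with saline and 55.3 to 132 (median 69.1) with non-escalating cocaine. All its groups overlapped. Dbp (chromosome 7, 45705088 to 45710203, + strand), the output factor, was low: 11.1, 12.4 and 11.8 CPM with saline, 15.7, 9.21, 27.0 and 17.2 with non-escalating cocaine, and 10.01 and 18.9 with escalating cocaine. Withdrawal libraries held it at 13.7, 9.46, 8.78, 10.1 and 3.92 CPM with saline and 6.02 to 16.2 (median 11.5) with non-escalating cocaine. Its lowest value rests on 14 counts, and its groups overlapped. Exons overlap on the opposite strand for Nr1d1 with Thra (263 bases) and for Dbp with Sphk2 (539 bases), with the same limit as for Cry2.

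Non-escalating cocaine without withdrawal was compared with saline first. In these libraries no clock gene passed the threshold, an adjusted p under 0.05 by edgeR's quasi-likelihood test with Benjamini-Hochberg adjustment over all 16909 genes tested. The background was 0% of all genes called, and 2.11% of all genes had an unadjusted p under 0.05 against 0 of 10 clock genes. DESeq2 called none of the 10 either. The largest estimates were Dbp at a log2 fold change of 0.57 ± 0.43 (SE), Cry1 at 0.43 ± 0.41 and Nr1d2 at 0.42 ± 0.28. The estimate for Clock was 0.00 ± 0.24, with a 95% interval of -0.49 to 0.49. The median over the 10 was 0.27 against 0.00 over all genes. In these bulk libraries fewer cells and less RNA per cell cannot be told apart, here or below.

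Escalating cocaine was compared with saline and with non-escalating cocaine, on 2 escalating libraries. Per2 was at 189 ± 23.2 CPM (SD, n = 2) in escalating libraries, 70.4 ± 10.8 (n = 3) in saline and 93.2 ± 31.8 (n = 4) in non-escalating libraries. Its log2 fold change was 1.43 ± 0.45 against saline (95% interval 0.49 to 2.36) and 1.02 ± 0.42 against non-escalating cocaine. Neither passed by edgeR (adjusted p = 1 in both). Per1, at 1.01 ± 0.46, and Cry1, at 1.13 ± 0.48, had positive estimates against saline and Arntl had -1.22 ± 0.58, all with adjusted p = 1. Per1, Per2 and Cry1 encode repressors of the loop, but so do Cry2 (0.245 ± 0.43) and Per3 (0.256 ± 0.594), whose estimates against saline were smaller than their SE. The same held for Clock (-0.074 ± 0.286), the partner of Arntl.

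Against saline 4 of 10 clock genes (Per1, Per2, Cry1 and Arntl) had an unadjusted p under 0.05 where 3.06% of all genes did, and none was called by edgeR, with 0% called in all, or by DESeq2. Per2 was higher and Arntl lower in every escalating than in every saline library, a lack of overlap that 15% of all genes showed in either direction. Against non-escalating cocaine 1 clock gene, Per2, had an unadjusted p under 0.05 (3.3% of all genes), none was called by edgeR (0% of all) or DESeq2, and Per2 alone did not overlap (8.45% of all genes). Against all other 21 immunopurified libraries Per2 was higher in both escalating libraries, and 53 of 16909 genes (0.313%) lay outside the others in either direction. The 2 escalating libraries gave different estimates for the other genes. Without escalating replicate 1 the log2 fold change against saline was 1.30 for Per2, 0.42 for Per1, 1.70 for Cry1 and -0.81 for Arntl. Without replicate 2 it was 1.54 for Per2, 1.44 for Per1, 0.18 for Cry1 and -1.80 for Arntl. Thus the Per1 and Arntl estimates were larger with replicate 1 alone and the Cry1 estimate rested on replicate 2. Both comparisons use the same 2 escalating libraries. Activity-induced genes, a list of 12 that includes Fos and Arc, summed to 1356 and 3339 CPM in the escalating libraries and 1126 to 1477 in saline, and D2 markers to 9642 and 19460 against 8418 to 13700. Their part in these values was not tested.

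**Figure D2:**
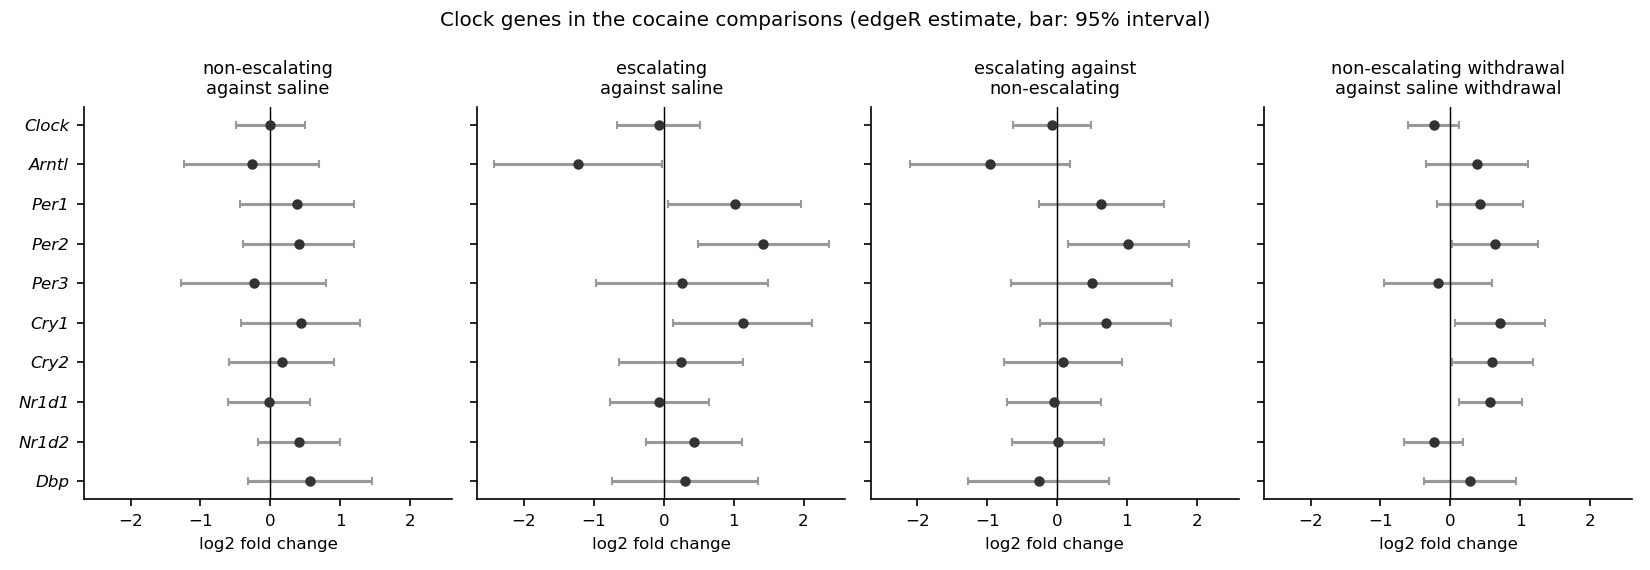
Log2 fold changes (edgeR estimates on the horizontal axis, with 95% intervals as bars) of the 10 clock genes in the 4 comparisons of cocaine with saline or of the cocaine groups. The intervals of Per1, Per2 and Cry1 lie above 0 and that of Arntl below 0 for escalating cocaine against saline, before any adjustment for the 16909 genes tested.

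After withdrawal, the non-escalating cocaine libraries were compared with saline withdrawal. Estimates were positive for 7 of 10 clock genes (median 0.40 against 0.01 over all genes), and 4 had an unadjusted p under 0.05: Cry1 (log2 fold change 0.71 ± 0.31), Per2 (0.64 ± 0.30), Cry2 (0.60 ± 0.28) and Nr1d1 (0.57 ± 0.21). Of all genes 5.22% had such a p. None was called by edgeR (0% of all genes) or DESeq2, and edgeR's adjusted p was 0.749 for each of the 4. Clock (-0.24 ± 0.17), Nr1d2 (-0.24 ± 0.20) and Per3 (-0.18 ± 0.37) had negative estimates.

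These 4 estimates differed between the library sets. In set A alone, where both saline withdrawal libraries had over 50% of reads outside genes, the log2 fold change was 1.48 for Per2, 1.42 for Cry2, 1.04 for Cry1 and 0.87 for Nr1d1. In set B alone it was 0.15 for Per2, 0.09 for Cry2, 0.52 for Cry1 and 0.38 for Nr1d1. Without the 5 libraries above 50%, a choice made after seeing the data, the estimates were 0.08 for Per2, 0.30 for Cry2, 0.36 for Cry1 and 0.33 for Nr1d1. With the share outside genes as a covariate they were 0.57, 0.37, 0.61 and 0.53 in that order. The share outside genes was 31.9% to 70.7% (median 46.4%) in saline withdrawal and 28.7% to 60.7% (median 32.3%) in non-escalating withdrawal libraries. The endothelial markers summed to 981 to 7606 CPM and 54.5 to 4814 CPM in these 2 groups. The D2 markers summed to 2344 to 7779 CPM (median 7236) and 4503 to 17750 (median 10100), and the activity-induced genes to 449 to 906 (median 629) and 565 to 2964 (median 895.5). Their part in the estimates was not tested.

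Withdrawal itself was compared within saline and within non-escalating cocaine. After saline, 8 of 10 clock genes had negative estimates (median -0.20 against 0.08 over all genes). Nr1d1 was at 34.4 ± 8.98 CPM (SD, n = 5) after withdrawal and 66.1 ± 14.3 (n = 3) without it, with a log2 fold change of -0.63 ± 0.30. It was the 1 clock gene with an unadjusted p under 0.05 (5.23% of all genes), and the 1 whose groups did not overlap (6.68% of all genes). Its CPM and lack of overlap take no account of library set, and all 3 saline libraries are in set A. Without the set term the Nr1d1 estimate was -0.94. Cry2 had an estimate of -0.78 ± 0.40. None was called by edgeR (0% of all genes) or DESeq2, with edgeR's adjusted p = 0.782 for both. Without the libraries above 50% outside genes the estimates were -0.16 for Nr1d1 and -0.03 for Cry2. The D2 markers summed to 2344 to 7779 CPM in the saline withdrawal libraries and 8418 to 13700 in the saline libraries, and the activity-induced genes to 449 to 906 and 1126 to 1477, with no overlap in either list. Their part in these values was not tested.

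After non-escalating cocaine 0 of 10 clock genes had an unadjusted p under 0.05 (4.51% of all genes) and none was called by edgeR (0% of all) or DESeq2. The largest estimates were 0.50 ± 0.41 for Arntl and -0.38 ± 0.37 for Dbp. The difference between the cocaine effects with and without withdrawal was tested as an interaction. None of the 10 was called by edgeR (0% of all genes) or DESeq2, and 0 had an unadjusted p under 0.05 (2.04% of all). The largest interaction estimates were -0.66 ± 0.35 for Nr1d2, 0.65 ± 0.58 for Arntl and 0.59 ± 0.35 for Nr1d1. All saline and non-escalating libraries without withdrawal are in set A, so the set term in these comparisons rests on the withdrawal libraries.

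The library sets were compared within the same fit, a comparison added after seeing the data. Cry1 was higher in set B, with a log2 fold change of 1.08 ± 0.30 (edgeR adjusted p = 0.0393), and was the only one of the 10 called by edgeR, which called 4.7% of all genes. Nr1d1 had -0.52 ± 0.20 (edgeR adjusted p = 0.14), and DESeq2 called both Cry1 and Nr1d1 (adjusted p = 0.0236 for Nr1d1). In edgeR these 2 genes were the ones with an unadjusted p under 0.05, against 20.2% of all genes. The Cry1 estimate was 0.52 (edgeR adjusted p = 0.568) without the libraries above 50% outside genes. The call was also lost without a low-count filter (adjusted p = 0.0676), and with saline withdrawal replicate 2 of set A as its own set (0.0672) or in set B (0.0807). Leaving out any 1 of 11 libraries ended it as well (adjusted p = 0.0509 to 0.0951): saline withdrawal replicates 1 and 2 of set A and of set B, and non-escalating withdrawal replicates 1 and 2 of set A and 1 to 5 of set B. Among other clock genes Rora, which encodes an activator of Arntl, was higher in set B by 0.82 ± 0.17 (adjusted p = 0.00921). The labels do not say what separates the sets.

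Against input, Per1 and Per2 were higher in the immunopurified libraries. Over all 23 of these the D2 markers had a median sum of 9642 CPM, against 2233 to 2401 in inputs. The endothelial markers had a median of 1066 CPM (54.5 to 7606), against 111 to 345 in inputs. Which cells the higher Per1 and Per2 come from was not tested. Per1 was at 92.1, 56.1 and 44.3 CPM in the saline, non-escalating and saline withdrawal inputs, and its immunopurified libraries of the same 3 conditions were at 108 to 228, 196.5 to 213 and 74.4 to 181. Per2 was at 46.7, 27.4 and 7.07 CPM in those inputs, and at 64.1 to 82.9, 52.9 to 128 and 25.8 to 74.7 after immunopurification. In each condition every immunopurified library was above the input for both genes. The share of all genes that separate in this way was not counted. The log2 fold change was 1.33 ± 0.32 for Per1 (edgeR adjusted p = 0.0211) and 1.62 ± 0.44 for Per2 (adjusted p = 0.0383), in a fit of 15 libraries and 16423 genes. These 2 of 10 were called higher and none lower, by DESeq2 as well, where 6.85% of all genes were called in either direction.

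The other members did not pass this test. Clock, at 202, 200.3 and 313 CPM in the inputs, was below the input in every immunopurified library of each condition, with -0.51 ± 0.19 (edgeR adjusted p = 0.117). For this direction, too, the share of all genes that separate was not counted. Nr1d1 had 0.65 ± 0.28 and Dbp 1.18 ± 0.60, the latter on 26 to 38 counts per input. Of the uniquely aligned reads, 8.6% to 12.8% in inputs were ambiguous between genes and not counted. In immunopurified libraries it was 0.94% to 2.85%. The part of these reads in the estimates of genes with exon overlaps (Nr1d1, Dbp and Cry2) was not tested. With Per1, Per2, Clock and Nr1d1, 4 of 10 had an unadjusted p under 0.05 against 25.6% of all genes. Arntl had 0.73 ± 0.73, and its saline withdrawal input held 1 count (0.228 CPM) where the other inputs were at 35.3 and 21.6 CPM. Cry2 (0.41 ± 0.22), Cry1 (0.19 ± 0.37), Nr1d2 (-0.17 ± 0.22) and Per3 (-0.18 ± 0.32) had estimates nearer 0. With 1 input per condition, single inputs decide the calls: without the non-escalating input the adjusted p was 0.146 for Per1 and 0.16 for Per2, and without the saline withdrawal input it was 0.0852 and 0.158. For Per2 it was also 0.0534 without saline withdrawal replicate 3 of set B and 0.0556 without saline replicate 4. With the replicate number as a block, the estimates were 0.92 (adjusted p = 0.254) for Per1 and 1.31 (adjusted p = 0.208) for Per2.

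**Figure D3:**
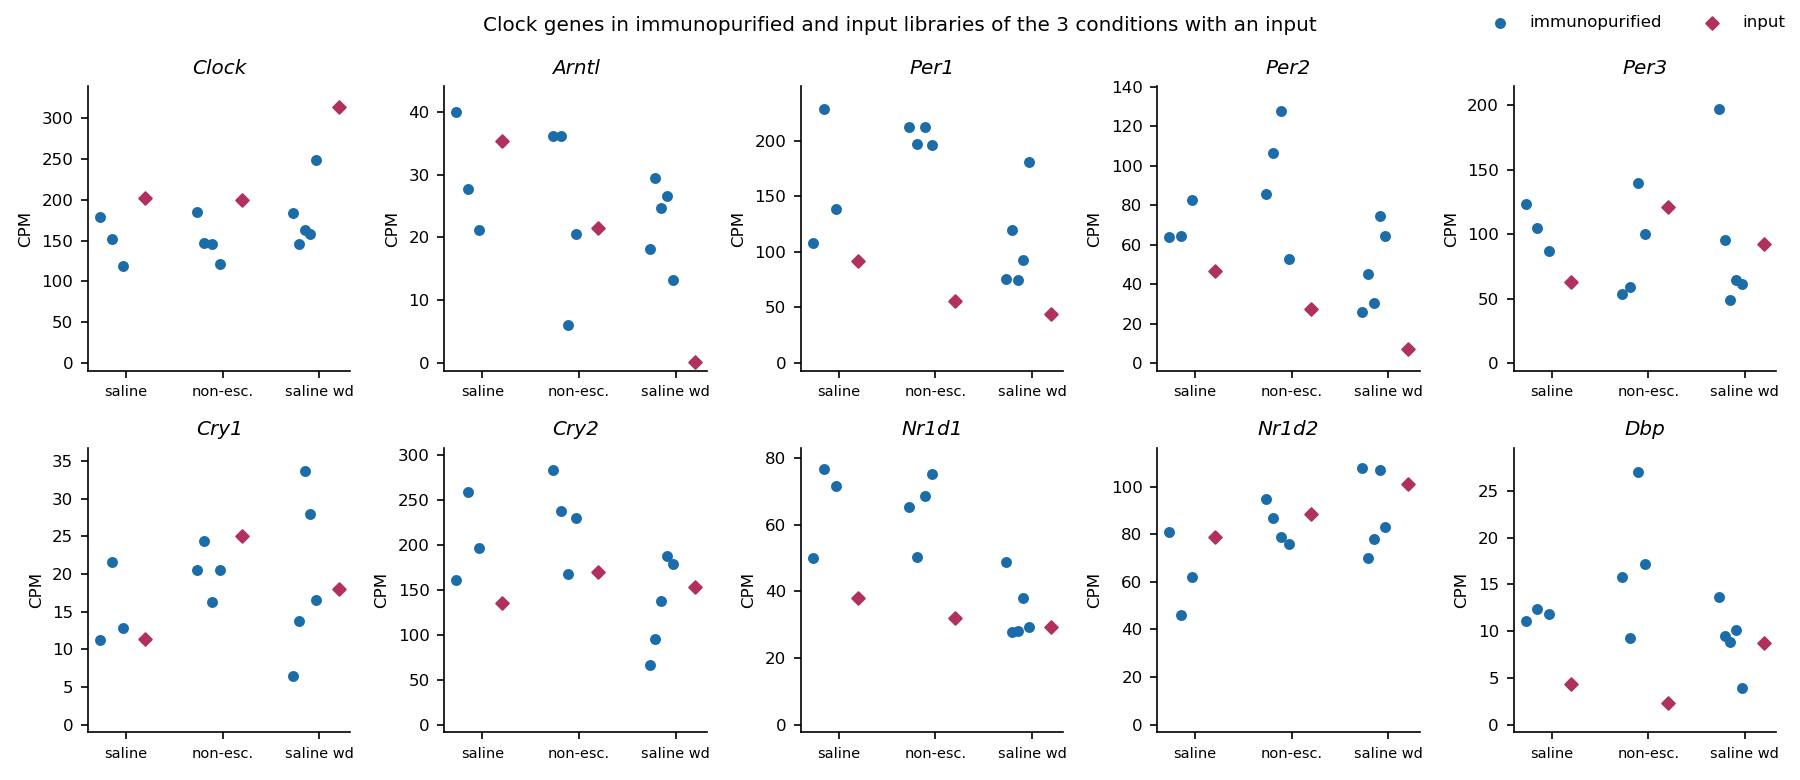
Levels of the 10 clock genes (CPM, linear axis) in immunopurified libraries (circles) and inputs (diamonds) of the 3 conditions with an input. The input lies below all immunopurified libraries of its condition for Per1 and Per2, and above all of them for Clock. The share of all genes that separate in this way was not counted.

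Other genes of the clock were read from a list of 18, of which 17 passed the low-count filter. None of the 17 was called in the 7 comparisons among immunopurified groups by edgeR. Among those with the lowest p were Hlf (0.92 ± 0.43), a D-box factor like Dbp, and the E-box repressor Bhlhe41 (1.05 ± 0.50) for escalating cocaine against saline, and the repressor Bhlhe40 (0.88 ± 0.39) with Hlf (0.77 ± 0.40) for escalating against non-escalating cocaine. After withdrawal they were Fbxl21 (0.66 ± 0.29), a ubiquitin ligase subunit for Cry proteins, and Npas2 (0.87 ± 0.40), a relative of Clock, for cocaine against saline. They were Fbxl21 (-1.01 ± 0.41) and Rorb (1.42 ± 0.72) for saline withdrawal against saline, and Fbxl21 was at -0.64 ± 0.34 for withdrawal after cocaine. Without withdrawal, non-escalating cocaine against saline gave Ciart (0.86 ± 0.66) and Cipc (0.46 ± 0.40), both repressors of the pair, and the interaction gave Npas2 (0.59 ± 0.64). The adjusted p was 0.749 or more for each of these.

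Against input 2 of the 17 were called by edgeR, where 6.85% of all genes were called in either direction. This fit has 1 input per condition, and how these 2 calls fare under the other settings was not followed. Rorb, an activator of Arntl, was lower after immunopurification by 3.17 ± 0.52 on the log2 scale (edgeR adjusted p = 0.00211), at 48.8, 79.6 and 43.1 CPM in the inputs. Timeless was called higher, but it had 0 counts in all 3 inputs and 1.61 to 52.9 CPM (median 10.5) in the 12 immunopurified libraries of the same conditions. Its mean of 14.4 CPM was at least 30.6-fold higher than what 3 counts in each input would give (mean 0.472 CPM).

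Among themselves the clock genes varied together in 5 of 45 pairs, on log2 CPM over the 23 immunopurified libraries (permutation test with 100000 resamples, two-sided, adjusted over the 45 pairs). The share among pairs of other genes was not computed, so this count shows nothing particular to clock genes. The repressors Per1 and Per2 had r = 0.75 (rho = 0.67, permutation p = 7e-05, adjusted p = 0.00315). Nr1d1 and Dbp had r = 0.64 (rho = 0.66, permutation p = 0.00084, adjusted p = 0.0153). Cry2 was related to Per1 (r = 0.64, rho = 0.66, permutation p = 0.00102, adjusted p = 0.0153), Per2 (r = 0.61, rho = 0.52, permutation p = 0.00222, adjusted p = 0.025) and Nr1d1 (r = 0.56, rho = 0.60, permutation p = 0.00502, adjusted p = 0.0452).

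None of these 5 was past the threshold within set B, on 8 libraries, and 3 of them were within set A. Per1 with Per2 gave r = 0.81 within set A and 0.26 within set B, and Nr1d1 with Dbp gave 0.48 and 0.42. The Cry2 values within sets A and B were 0.74 and 0.52 with Per1, 0.66 and 0.29 with Per2, and 0.72 and 0.23 with Nr1d1. Leaving out the 2 libraries farthest from the median, r was 0.65 for Per1 and Per2 and 0.66 for Nr1d1 and Dbp, which still passed, and 0.54, 0.50 and 0.60 for the Cry2 pairs in the same order, which did not. After taking out group, library set and share outside genes, 2 of 45 pairs passed: Cry2 with Nr1d1 at r = 0.66 (permutation p = 0.00059, adjusted p = 0.0133) and Per1 with Arntl at r = -0.70 (permutation p = 0.00032, adjusted p = 0.0133), the latter at r = -0.17 before. After taking out group and set alone, Per3 with Cry2 (r = -0.81, adjusted p = 0.00045) and Per1 with Cry2 (r = 0.62, adjusted p = 0.0369) passed by the same permutation test. The residuals were permuted freely, without allowing for the degrees of freedom the fit takes, so p-values on residuals may be too small.

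**Figure D4:**
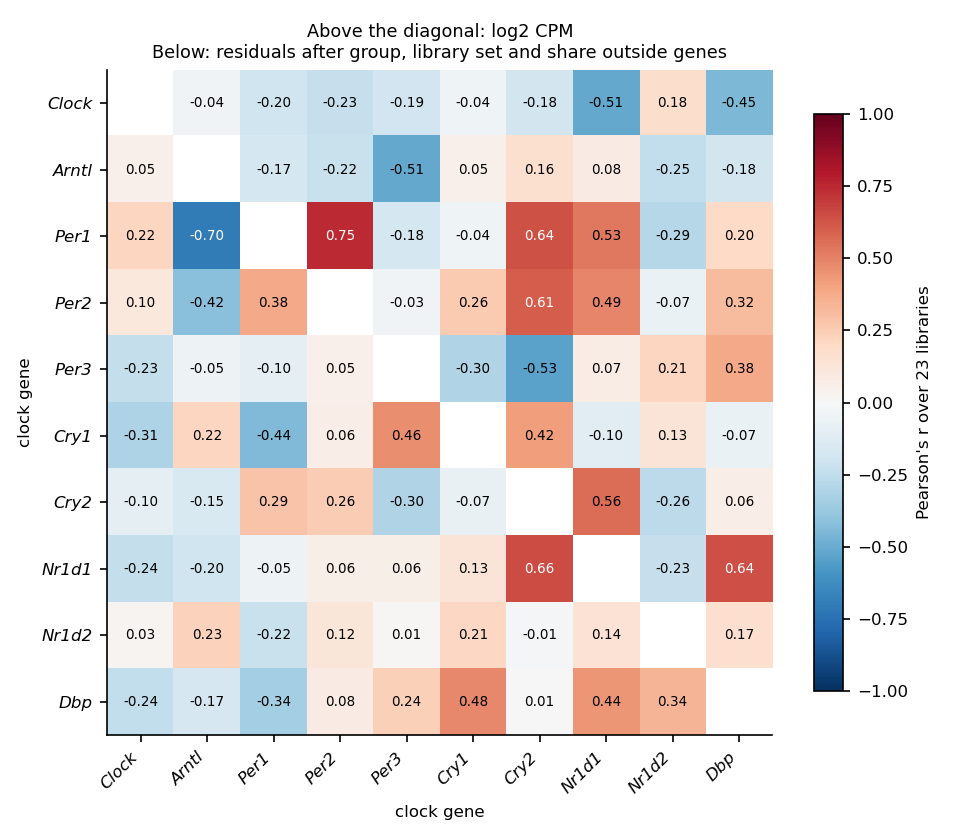
Pearson's r between the clock genes over the 23 immunopurified libraries, for log2 CPM above the diagonal and for residuals after group, library set and share outside genes below it (colour scale from -1 to 1). Per1 with Per2 goes from 0.75 above the diagonal to 0.38 below it, and Per1 with Arntl from -0.17 to -0.70.

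The levels were also compared with measures of the library. Of 50 relations between the 10 genes and 5 measures, 12 passed by permutation test over 23 libraries. The share of all genes that would pass was not computed, so the count shows nothing particular to clock genes. Cry2 was lower where the share outside genes was larger (r = -0.84, rho = -0.76, permutation p = 1e-05, the smallest these resamples can give, adjusted p = 0.00025) and higher where the D2 markers were higher (r = 0.87, rho = 0.83). For Cry2 the values within sets A and B were -0.89 and -0.64 for the share and 0.89 and 0.83 for the D2 markers. Per3 went the other way, with r = 0.69 for the share (rho = 0.67, permutation p = 0.00033, adjusted p = 0.00283, 0.70 and 0.89 within the sets) and -0.60 for the D2 markers. Leaving out the 2 farthest libraries, the share gave r = -0.73 for Cry2 and 0.56 for Per3, and the latter no longer passed (adjusted p = 0.0617 by permutation).

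Per1 had r = -0.58 with the share (rho = -0.61), 0.75 with the D2 markers and 0.78 with the activity-induced genes (rho = 0.75, permutation p = 5e-05, adjusted p = 0.00075, 0.76 and 0.47 within sets A and B). Per2 had r = 0.64 with the D2 markers and 0.56 with the activity-induced genes, at 0.70 and 0.62 in set A and -0.21 and -0.16 in set B. With the 8 endothelial markers r was -0.69 for Cry2 and 0.60 for Per3, and Per3 had r = 0.53 with a list of 10 glucocorticoid-responsive genes such as Fkbp5. Without the 2 farthest libraries 5 of the 12 still passed, namely those of Cry2 with all 3 measures named here and those of Per1 with the D2 markers (r = 0.71) and the activity-induced genes (r = 0.68). In this main setting Arntl, Clock, Cry1, Dbp, Nr1d1 and Nr1d2 passed with none of the 5 measures. Under other settings some did, by permutation test. With RLE factors for library size Nr1d2 passed with the D2 markers (r = -0.60, adjusted p = 0.0135) and endothelial markers (r = 0.55, adjusted p = 0.0289). By rho Nr1d1 passed with the D2 markers (0.60, adjusted p = 0.0167). Within set A Cry1 passed with the share (r = -0.77), the D2 markers (0.71) and the endothelial markers (-0.63).

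**Figure D5:**
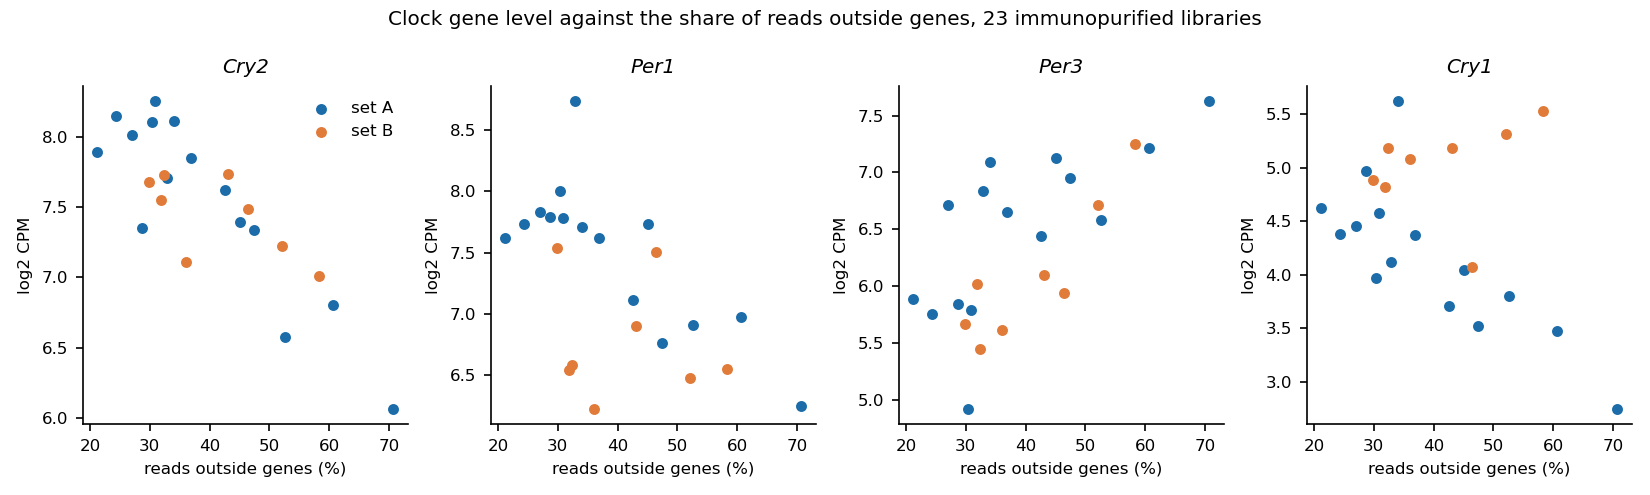
Log2 CPM of Cry2, Per1, Per3 and Cry1 (vertical axes, each with its own range) against the percentage of uniquely aligned reads assigned to no gene, in the 23 immunopurified libraries, coloured by set. Cry2 (r = -0.84) and Per1 (r = -0.58) lie lower and Per3 (r = 0.69) higher where that share is larger, and Cry1 has r = -0.42.

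Genes of like pattern were ranked among 10354 genes whose CPM averaged 5 or more, by Pearson's r of residuals after group, library set and share outside genes over the 23 libraries. These are the highest of many coefficients and carry no test. For Clock they were Usf3 (0.91), Ep300 (0.89) and Tmtc1 (0.84), the highest among the 10 members, and for Arntl Zfp51 (0.76), Pmpca (0.74) and Mogs (0.74). For Per1 they were Clmp (0.82), Med13l (0.81) and Smarcc2 (0.80), for Per2 Poldip3 (0.79), Nrsn1 (0.71) and Gng7 (0.69), and for Per3 Uqcc3 (0.83), Zfp319 (0.80) and Arl4a (0.79). The Cry genes had other neighbours. For Cry1 they were Rassf4 (0.75), Pik3c3 (0.75) and Mrpl18 (0.74), and for Cry2 Arhgef4 (0.83), Srebf2 (0.83) and Cdc42bpg (0.82). For Nr1d1 they were Dhx32 (0.79), Cenpt (0.78) and Yeats2 (0.76), for Nr1d2 Naa30 (0.78) and Tmem33 (0.75), and for Dbp Btbd10 (0.78), Ptgs2 (0.77) and Zbtb43 (0.77). No clock gene was among the 3 nearest of another.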

How the data were processed

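The members and lists were chosen with earlier results of these data known. The values are raw counts of reads per gene symbol, which the authors deposited as 1 table per library; the submitters' processing notes name STAR 2.0.0e, mm10 and HTSeq, while annotation and strand setting were not found there. In all, 10 tables list 32531 genes and 16 list 32657. The tables were joined on 31735 common symbols plus 237 renamed genes, which kept 99.5% to 99.9% of each library's gene counts. Entries that name no gene stayed out of library sizes. Reads outside genes are those that HTSeq assigned to no feature, over uniquely aligned reads.

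Groups were read from titles and library sets from library numbers. Saline withdrawal replicate 2 of set A is not marked as a copy of another number, unlike the rest of set A, and its table lists the same genes as set B. It was also counted as its own set and, after seeing the data, with set B. No 2 of 56 same-group library pairs were identical.

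Counts of the 23 immunopurified libraries were fitted in edgeR 4.0.16 (R 4.3.3; TMM factors, filterByExpr, quasi-likelihood test) on group plus library set, leaving 17 residual degrees of freedom over 16909 genes. Immunopurified and input libraries were fitted separately over the 3 conditions with an input (10 residual degrees of freedom). A gene was called where its p, adjusted by Benjamini-Hochberg over all genes tested, was under 0.05. CPM use TMM factors over all 26 libraries, and log2 CPM a prior count of 2. Exon lengths and coordinates are from GENCODE M21 (GRCm38, the build named mm10). All 10 members are named in every comparison, and of the other clock genes those called or the 2 with the lowest p. Genes of like pattern are the 3 with the highest correlation. Some genes that these rules name are not reported here. In simulated data for escalating cocaine against saline (16341 genes), 0% of 100 genes changed by 2-fold and 13% of 100 changed by 4-fold were recovered. For withdrawal cocaine against saline (16444 genes) it was 17% and 76%, and for input (15890 genes) 4% and 41%. The settings varied were the tool (DESeq2 1.42.0), RLE factors, dropping the low-count filter, dropping the set term, single sets, the share outside genes as a covariate, a replicate block and leaving out each library.

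Same-numbered immunopurified libraries of different groups, within a set, were checked for deviating together. Over 25 such pairs the residuals had a median r of -0.186 (-0.541 to 0.571), and over the 172 other pairs 0.0605. In the main fits numbers were therefore not taken to pair libraries. The check held no inputs, so it cannot show whether an input pairs with an immunopurified library of its condition.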

Additional observations from a re-analysis of the deposited data

Results flagged for a closer look

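In non-escalating withdrawal, replicate 4 of set B held Nr1d2 at 132.2 CPM, far from the other 8 libraries, the next of which was at 83.1 CPM. The gap was 0.638 of the group's range, above Dixon's critical value of 0.493 for 9 libraries. In the same library Per3 (152 CPM) and Cry1 (45.9 CPM) were the highest of their group and Arntl (13.2 CPM) the lowest. Of its reads 58.4% lay outside genes. The check covered 30 sets of a gene and a group with 4 to 10 libraries, flagged this 1, and flags about 1 in 20 by chance.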

How the results depend on the processing

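No clock gene was called in any of the 7 comparisons among immunopurified groups under any alternative run, with each library left out included (0 to 0). Over all genes DESeq2 called 6 for non-escalating and 6 for escalating cocaine against saline, 15 for escalating against non-escalating, 33 for cocaine against saline after withdrawal, 8 and 21 for withdrawal after saline and after cocaine, and 4 for the interaction. Without a low-count filter escalating cocaine gave 2 calls against saline and 1 against non-escalating, and with the share outside genes as a covariate 2 and 4. Leaving out 1 library gave 0 to 2 and 0 to 6 for these 2 comparisons and 0 for the others.

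Against input the count of 1125 genes went to 3101 with DESeq2, 1789 with the share as a covariate, 70 with the replicate block and 241 to 1527 without 1 library. The 2 clock genes called went to 0 with the replicate block and 0 to 2 without 1 library, and stayed at 2 otherwise. The block changed no other count of clock genes called. Between sets the count of 795 went to 1958 with DESeq2, 2255 with the share as a covariate, 484 with the library not marked as a copy as its own set, 305 with that library in set B, 323 without libraries above 50% outside genes, and 409 to 1040 without 1 library. Cry1 was the 1 clock gene called there. DESeq2 called 2, and 0 were called without a filter, with that library as its own set or in set B, and without libraries above 50%. Without 1 library it was 0 to 1: the call was lost without any 1 of saline withdrawal replicates 1 and 2 of set A or of set B, non-escalating withdrawal replicates 1 and 2 of set A, or non-escalating withdrawal replicates 1 to 5 of set B.

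Related pairs of clock genes went from 5 to 2 with RLE factors, 0 in set B, 3 without the 2 farthest libraries, 2 after group and set and 2 after group, set and share. Relations to library measures went from 12 to 0 in set B and 5 without the 2 farthest libraries. With RLE factors Per1 with the share and Per2 with the activity-induced genes no longer passed. Nr1d2 with the D2 markers and with the endothelial markers passed instead. Directions turned for Cry1 in escalating against non-escalating cocaine (-0.253 without escalating replicate 2, 1.27 without replicate 1), Per1 in withdrawal cocaine against saline (-0.022 in set B), and, without libraries above 50%, Cry2 in withdrawal after cocaine (0.115) and Nr1d2 between sets (-0.056). They also turned for Per2 with D2 markers (r = -0.208) and with activity-induced genes (r = -0.161) in set B. Uncalled estimates smaller than their SE changed sign more often: 72 of 870 estimates under other settings and 80 of 1990 without 1 library did so in all. The causes were not tested. Depth limits Dbp and Arntl most, with 14 and 44 counts in their poorest immunopurified libraries.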
